A study of Mus musculus with 24 samples.

Results

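Mitosis is driven by cyclin-dependent kinase 1 and its cyclins, which are switched on at the end of G2 and destroyed when chromosomes separate. Kinases of the Aurora and Polo families, motor proteins of the kinesin family and the centromere then build the spindle, and the anaphase-promoting complex (APC/C), a ubiquitin ligase, ends the division. Most of these transcripts are made in G2 and M phase and are nearly silent in resting cells, so in the normally quiescent lung they are used as markers of cells that have re-entered the cycle, for example during epithelial repair after oxidant injury.

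The genes described here are 44 genes of mitosis and the spindle, taken as a list by gene symbol. They were measured in the left lung lobe of male mice, and 42 of the 44 had a probe set on the Affymetrix Mouse 430A 2.0 array among 12394 genes in all. Ccnb1 and Cdca8 had no probe set listed under their symbols and were not measured. Mice of 2 strains were compared, C3H/HeOuJ (OuJ), in which the endotoxin receptor Tlr4 is intact, and C3H/HeJ (HeJ), which carries a dominant negative Tlr4. Each strain had 4 groups of 3 mice with 1 array per mouse: air, and ozone for 6, 24 or 48 h, which made 24 arrays. The HeJ allele is present in every cell of the animal, in air as in ozone. RNA came from individual lungs. Neither the ozone concentration, the time in air nor the age of the mice is stated. The comparisons follow the lung response to ozone over time, with and without working Tlr4.

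Values are signal intensities on a linear scale, and changes are differences of log2(signal + 16), given ± SE from limma with Benjamini-Hochberg adjusted p-values over all 12394 genes. The added 16 shrinks the changes of dim genes. The threshold for passing was an adjusted p of 0.05, and no gene was removed for low signal, so each of the 42 measured genes was tested. The lung identity of the tissue was borne out by its defining markers. The summed signal of 7 alveolar type 2 markers lay between 99391 and 139892 over all groups, and that of 7 club cell markers between 107962 and 152809. No marker of the 13 cell types checked lay below 16 on every array, which is a low bar and says nothing of the tissue. The neutrophil marker Camp was under 16 on 19 of the 24 arrays and the red cell marker Epb42 on 14. The codes of the samples fall into 3 series: air and 6 h of both strains begin with 3, the later OuJ arrays with 10 and the later HeJ arrays with 13. What the number stands for is not given, so in the comparisons of 24 or 48 h with air the exposure and the code series cannot be told apart, whereas 6 h against air and 48 h against 24 h lie within 1 series. The 5' to 3' ratio of Gapdh, a sign of RNA integrity, ranged from 0.781 to 1.03 over the OuJ arrays and from 0.497 to 0.944 over the HeJ arrays, and its highest HeJ value belonged to replicate 1 at 24 h.

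The mitosis genes were higher after 48 h of ozone in both strains, and few of them passed before that. In OuJ, 20 of the 42 genes passed as higher and 0 as lower at 48 h, where 2.41% of all genes passed as higher. In HeJ, 19 passed as higher and 0 as lower, against 3.28% of all genes as higher. Over all genes 2.5% passed as lower in OuJ and 3.62% in HeJ. All 3 arrays at 48 h lay above all 3 air arrays for 30 of the 42 genes in OuJ and for 26 in HeJ, where 11% and 10.5% of all genes did so. At an unadjusted p under 0.05, 28 of the 42 were higher in each strain, where 7.31% of all genes were in OuJ and 8.4% in HeJ. The median change of the 42 genes was 0.67 in each strain, and the median over all genes was -0.01 in OuJ and -0.04 in HeJ. The mean log2 level of the 42 genes ran from 7.15 to 7.42 over the OuJ air arrays and from 7.96 to 8.12 at 48 h. For HeJ it was between 7.03 and 7.46 in air and between 7.91 and 7.97 at 48 h. In both strains each of the 3 arrays at 48 h lay above each air array. These are whole-lobe samples, so a larger number of dividing cells and more mitotic RNA per cell cannot be told apart.

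**Figure D1:**
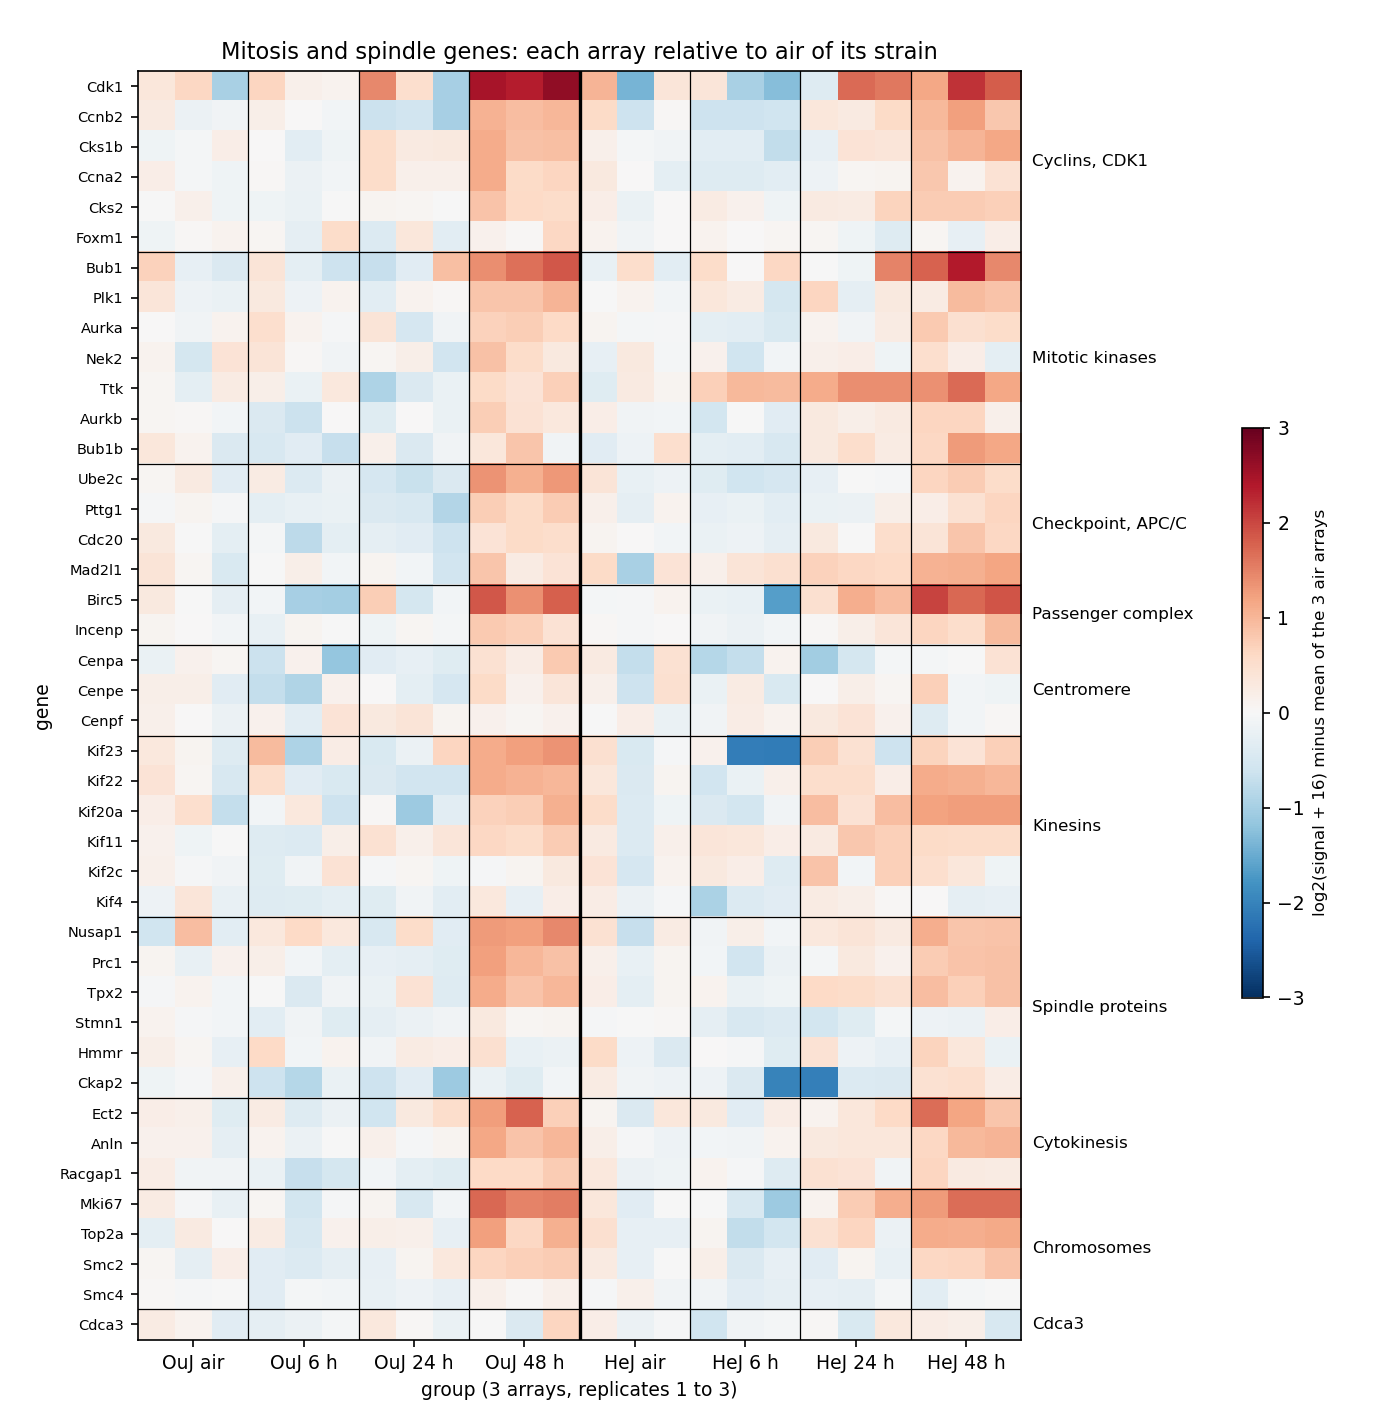
Heat map of the 42 measured mitosis and spindle genes (rows, grouped by role) in the 24 arrays (columns, 3 per group). Colour is log2(signal + 16) minus the mean of the 3 air arrays of the same strain, from blue (lower) to red (higher), on a scale of -3 to 3. The 48 h columns are red for most rows in both strains, and the 24 h columns are redder in HeJ than in OuJ.

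The cyclin and Cdk1 group was higher at 48 h in 5 of its 6 measured members in OuJ and in 3 of 6 in HeJ. The small CDK-binding protein Cks1b passed in both strains. Its OuJ signals were 405, 424 and 507 in air, 656, 537 and 549 at 24 h and 971, 835 and 837 at 48 h, a change from air of 0.96 ± 0.16 at 48 h (adjusted p = 0.00093). Its HeJ signals were 577, 498 and 480.0 in air, 432, 693 and 669.5 at 24 h and 957, 1059.6 and 1171 at 48 h, a change of 1.01 ± 0.16 (adjusted p = 0.000434). The 48 h arrays lay above all air arrays and all 24 h arrays of their strain, and the 24 h arrays overlapped air in HeJ but not in OuJ. Its paralog Cks2 went from 256, 289 and 234 in OuJ air to 480.3, 401 and 385 at 48 h (0.67 ± 0.15, adjusted p = 0.00947). In HeJ it went from 247, 183 and 218 to 375, 372 and 363 (0.74 ± 0.15, adjusted p = 0.00317), again with no overlap between the groups. Cyclin B2 (Ccnb2), which activates Cdk1, read 152, 107 and 114 in OuJ air, 72.6, 78.1 and 53.5 at 24 h and 269, 249.8 and 262 at 48 h. Here the OuJ 24 h arrays lay below all 3 air arrays (-0.74 ± 0.23, adjusted p = 0.0771) before the 48 h arrays lay above them (0.99 ± 0.23, adjusted p = 0.0139). In HeJ the Ccnb2 signals were 178, 69 and 119 in air, 149, 140.1 and 177 at 24 h and 240.3, 289 and 212 at 48 h (1.00 ± 0.23, adjusted p = 0.00939), so that the 24 h arrays lay within the air range.

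Cdk1 itself, the kinase that starts mitosis, had the largest change of the 42 genes in OuJ and a wide spread. It read 90.3, 112 and 26.4 in OuJ air and 444, 413 and 515 at 48 h, a change of 2.50 ± 0.64 (adjusted p = 0.0259). The HeJ signals were 145, 14.5 and 86.3 in air, 44.7, 244 and 224 at 24 h and 162, 341 and 263 at 48 h, and its change of 1.71 ± 0.64 did not pass (adjusted p = 0.125), although the 48 h arrays lay above all air arrays. Cyclin A2 (Ccna2), which acts in S phase and G2, passed in OuJ (0.78 ± 0.19, adjusted p = 0.02) and had a value of 0.45 ± 0.19 in HeJ (adjusted p = 0.181). Its other probe set passed in both strains in a fit of all probe sets, with 0.99 ± 0.19 in OuJ (adjusted p = 0.00442) and 0.66 ± 0.19 in HeJ (adjusted p = 0.0427). Foxm1, the transcription factor that drives many G2 and M genes, had values of 0.26 ± 0.20 in OuJ and 0.00 ± 0.20 in HeJ and passed in neither, with adjusted p-values of 0.611 and 0.997. Its air and 48 h arrays overlapped in both strains.

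Among the 7 mitotic kinases, 2 passed in OuJ at 48 h and 3 in HeJ, and all 7 had values above 0 in both. The checkpoint kinase Bub1 was dim in air, at 35.2, 10.9 and 7.4 in OuJ and 6.5, 21.6 and 4.9 in HeJ. At 48 h it read 67.5, 83.9 and 100.2 in OuJ (1.64 ± 0.44, adjusted p = 0.0346) and 73, 119.8 and 54.3 in HeJ (1.86 ± 0.44, adjusted p = 0.0123). The groups did not overlap in either strain, but the value depended on the probe set and the added constant: with 1 in place of 16 the change was -0.19 in OuJ and -0.045 in HeJ. With 1 added, another Bub1 probe set had the highest mean log2 value and was the one taken. The spindle pole kinase Aurka read 139.9, 127 and 149 in OuJ air and 232, 241 and 216 at 48 h (0.67 ± 0.19, adjusted p = 0.0492). Signals in HeJ were 167, 149.8 and 151 and 279.5, 226 and 234, with no overlap and a change of 0.60 ± 0.19 that did not pass (adjusted p = 0.0647). Plk1, the Polo kinase of mitotic entry, read 131, 87.4 and 84.8 in OuJ air and 188, 190.0 and 217 at 48 h, again without overlap and just short of the threshold (0.89 ± 0.26, adjusted p = 0.0521). Its HeJ value was 0.68 ± 0.26 (adjusted p = 0.137). Aurkb, the kinase of the chromosomal passenger complex, and Nek2, a centrosome kinase, passed in neither strain. Bub1b, which holds back the APC/C at the checkpoint, passed in HeJ (1.03 ± 0.28, adjusted p = 0.0263) and had a value of 0.35 ± 0.28 in OuJ (adjusted p = 0.615).

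Ttk, the kinase at the head of the spindle checkpoint, passed in HeJ from 24 h on. HeJ lungs read 13.4, 29.7 and 24.4 in air, 46, 57.8 and 57.4 at 6 h, 66.4, 83.3 and 84.2 at 24 h and 82.7, 107 and 69 at 48 h. All 9 ozone arrays of HeJ lay above all 3 air arrays. The change was 0.88 ± 0.24 at 6 h (adjusted p = 0.296), 1.31 ± 0.24 at 24 h (adjusted p = 0.00321) and 1.42 ± 0.24 at 48 h (adjusted p = 0.000818). In OuJ it read 63.4, 47 and 74.5 in air, 24.5, 41.2 and 51.3 at 24 h and 99, 86.7 and 109.6 at 48 h, so that the 24 h arrays reached below air and the 48 h arrays lay above it. The HeJ minus OuJ difference of the change at 24 h was 1.82 ± 0.33, the smallest p among the 42 genes in that comparison, with an adjusted p of 0.0985. The HeJ air arrays of Ttk also lay below all OuJ air arrays (-1.02 ± 0.24, adjusted p = 0.0674), so the HeJ changes start from a lower level. Both differences were short of the threshold, and under some alternatives they passed.

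Of the 4 genes of the checkpoint and the APC/C, 2 passed at 48 h in each strain. Ube2c, the ubiquitin-conjugating enzyme of the APC/C, read 172, 201 and 126 in OuJ air, 195, 119 and 144 at 6 h, 110.3, 96.4 and 117 at 24 h and 443, 359 and 429 at 48 h. The 24 h arrays lay below all air arrays and the 48 h arrays above them (1.24 ± 0.19, adjusted p = 0.00063). The readings in HeJ were 267, 169 and 179.6 in air, 168, 199 and 196 at 24 h and 325, 352 and 301 at 48 h (0.65 ± 0.19, adjusted p = 0.0446). Securin (Pttg1), which the APC/C destroys to let sister chromatids part, read 893, 971 and 895 in OuJ air, 677, 655 and 496 at 24 h and 1541, 1381 and 1574 at 48 h. It was the single member that passed in OuJ at 24 h, as lower (-0.59 ± 0.13, adjusted p = 0.0119), where 1.65% of all genes passed as lower. At 48 h it was higher than in air (0.69 ± 0.13, adjusted p = 0.00367). The fall at 24 h was lost without OuJ air replicate 2 or OuJ 24 h replicate 3. In HeJ securin read 1208, 909 and 1181 in air and 1249, 1508 and 1711 at 48 h, all above air but short of the threshold (0.43 ± 0.13, adjusted p = 0.0509). Cdc20, an activator of the APC/C, read 319.8, 256 and 207 in OuJ air and 349.5, 389.6 and 376 at 48 h (0.50 ± 0.19, adjusted p = 0.146), without overlap and without passing. In HeJ its value was 0.62 ± 0.19 (adjusted p = 0.051), while in the fit of all probe sets another of its probe sets passed (1.12 ± 0.19, adjusted p = 0.00137). The checkpoint protein Mad2l1 passed in HeJ (1.10 ± 0.30, adjusted p = 0.0272), where HeJ air replicate 2 was far below the other air arrays at 37.8 against 142 and 125, and had a value of 0.50 ± 0.30 in OuJ (adjusted p = 0.45).

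Birc5 and Incenp, subunits of the chromosomal passenger complex, which corrects the attachment of chromosomes to the spindle, passed in both strains. Its kinase Aurkb, given above with the mitotic kinases, passed in neither. Survivin (Birc5) read 116, 90.7 and 74.2 in OuJ air and 376, 266 and 358 at 48 h (1.68 ± 0.35, adjusted p = 0.00736). For HeJ the signals were 81.3, 83.2 and 93.3 in air, 125, 201 and 178 at 24 h and 399, 320.2 and 361 at 48 h (1.88 ± 0.35, adjusted p = 0.00208). The HeJ 24 h arrays lay between air and 48 h, above all air arrays (0.83 ± 0.35, adjusted p = 0.21). The scaffold Incenp read 202, 193 and 178 in OuJ air and 342, 322 and 261 at 48 h (0.64 ± 0.14, adjusted p = 0.0119). HeJ signals were 223, 214 and 219.8 and 352, 325 and 439.9 (0.71 ± 0.14, adjusted p = 0.00403), also with no overlap.

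**Figure D2:**
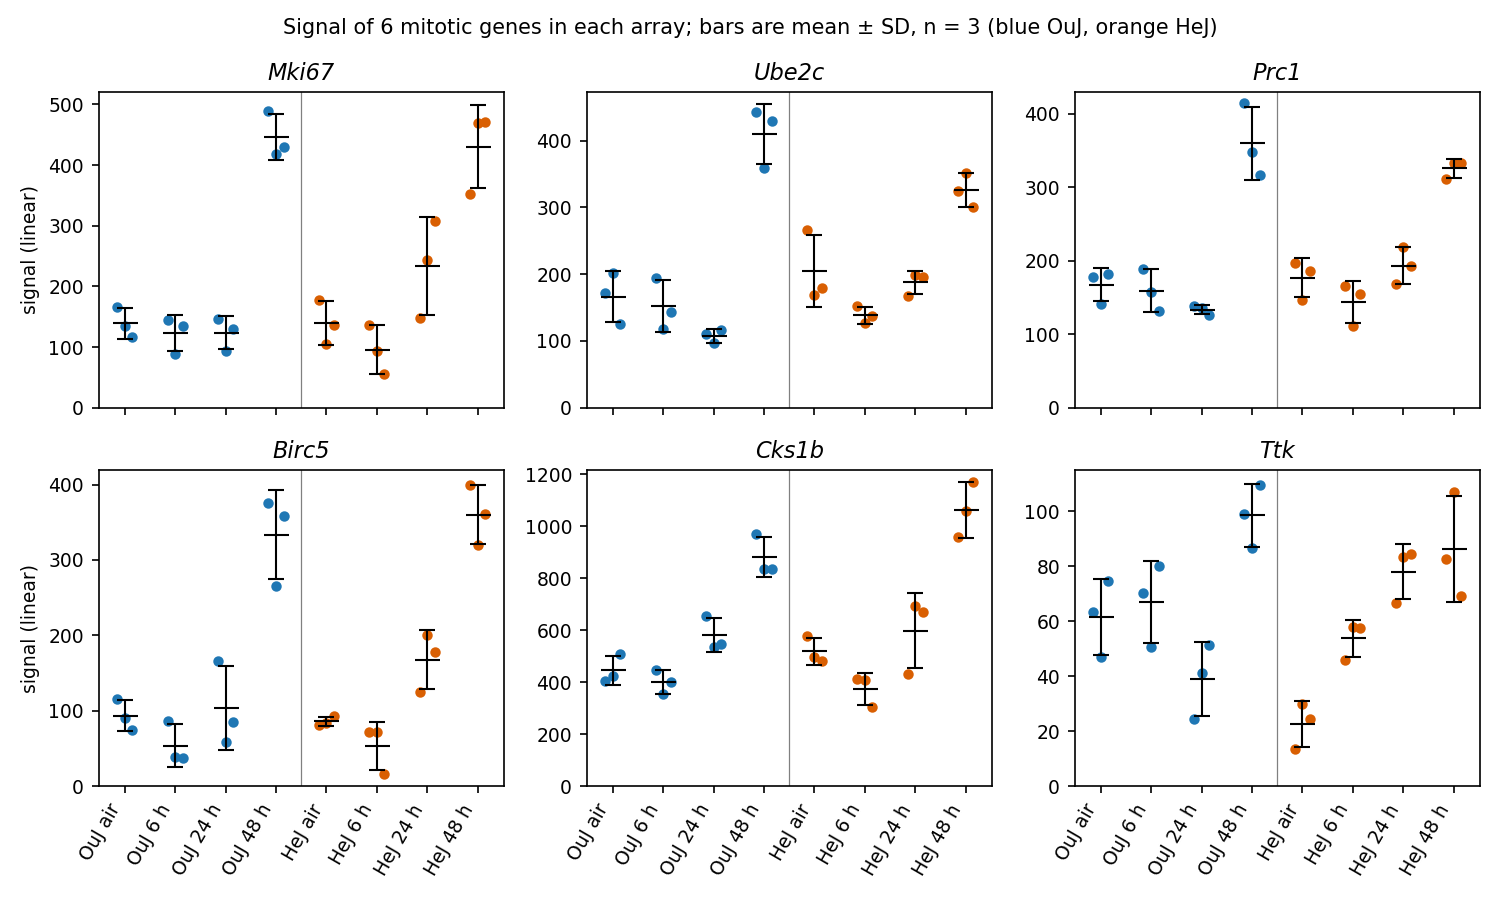
Signal (linear scale) of 6 mitosis genes in every array of the 8 groups, OuJ in blue and HeJ in orange. Points are single mice, and bars are the mean ± SD of 3. The 48 h points lie above the air points of their strain in each panel, and in HeJ the Ttk points of all 3 ozone times do so.

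Of the 3 centromere proteins 0 passed in either strain at 48 h with limma, and at an unadjusted p under 0.05 the count was also 0 in each. The centromeric histone Cenpa read 91.6, 120.0 and 114 in OuJ air and 153, 128 and 198 at 48 h, above all air arrays (0.49 ± 0.34, adjusted p = 0.544), whereas in HeJ the 48 h signals of 104, 109 and 154 lay within the air range, between 60.4 and 156. The kinetochore motor Cenpe read 23.1, 23 and 11.5 in OuJ air and 35.6, 21.8 and 29 at 48 h, close to the added constant. The kinetochore protein Cenpf read 176, 156 and 137 in OuJ air and 172, 161 and 170.3 at 48 h, with overlap (0.10 ± 0.19, adjusted p = 0.874), and its HeJ value was -0.14 ± 0.19 (adjusted p = 0.766).

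Of the 6 kinesins, which move chromosomes and spindle microtubules, 1 passed in OuJ at 48 h and 2 in HeJ. The chromosome-binding kinesin Kif22 read 141, 109 and 69.5 in OuJ air, 72.4, 63.5 and 63.3 at 24 h and 241, 227 and 219 at 48 h (1.04 ± 0.26, adjusted p = 0.0233). HeJ arrays read 152, 82.7 and 125 in air, 176, 176 and 136 at 24 h and 270.2, 261 and 248 at 48 h (1.05 ± 0.26, adjusted p = 0.0166). Kif20a, a motor of the midzone between the parting chromosomes, read 40.9, 54 and 14.1 in OuJ air and 63.6, 65.9 and 87.1 at 48 h without passing (0.83 ± 0.33, adjusted p = 0.187). It passed in HeJ, where it went from 37.2, 11.2 and 17.4 to 68.2, 70.3 and 70.4 (1.23 ± 0.33, adjusted p = 0.026). Kif11, the motor that pushes the spindle poles apart, had no overlap between air and 48 h in either strain and passed in neither (0.64 ± 0.21, adjusted p = 0.0906 in OuJ, and 0.57 ± 0.21, adjusted p = 0.122 in HeJ). Kif23, a motor needed for cytokinesis, varied widely within groups, from 13.5 to 123 at 6 h in HeJ, and its 48 h value in OuJ was 1.23 ± 0.51 (adjusted p = 0.201). The chromokinesin Kif4 had values of 0.09 ± 0.19 in OuJ and -0.16 ± 0.19 in HeJ. The microtubule-depolymerizing Kif2c depended on the probe set: the one used here gave 0.11 ± 0.27 in OuJ, while another of its 4 probe sets gave 1.46 ± 0.37 (adjusted p = 0.0331 in a fit of all probe sets) and the remaining pair 0.22 and 0.11. In HeJ too the probe set used did not pass at 48 h, while another of the gene passed as higher in that fit.

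Of the 6 other spindle proteins, 3 passed in OuJ and 2 in HeJ. Prc1, which bundles the microtubules of the midzone, read 179, 141 and 183 in OuJ air, 139, 136 and 126 at 24 h and 415, 348 and 317 at 48 h (1.03 ± 0.17, adjusted p = 0.0012). Its HeJ signals were 197, 147 and 186 in air, 168, 219 and 193 at 24 h and 311, 333 and 334 at 48 h (0.83 ± 0.17, adjusted p = 0.005). In OuJ the 24 h arrays lay below air, in HeJ they overlapped it, and in both the 48 h arrays stood above all others of the strain. Tpx2, which activates Aurka on the spindle, went from 68.7, 78.1 and 66.2 in OuJ air to 172, 141 and 158 at 48 h (0.99 ± 0.21, adjusted p = 0.00792) and from 76.9, 50.1 and 69.6 to 138, 116 and 131 in HeJ (0.84 ± 0.21, adjusted p = 0.0173). Nusap1, which links microtubules to chromatin, read 64.3, 215 and 81.6 in OuJ air and 281, 272 and 318 at 48 h (1.33 ± 0.32, adjusted p = 0.0201). One of its air arrays, OuJ replicate 2, was far above the other air arrays, and in HeJ its value was 0.92 ± 0.32 (adjusted p = 0.096). The microtubule destabilizer Stmn1 had values of 0.15 ± 0.12 in OuJ and -0.04 ± 0.12 in HeJ at 48 h, and the hyaluronan receptor Hmmr, which also binds the spindle, 0.02 ± 0.28 and 0.27 ± 0.28. Ckap2 was the only one of the 42 genes below 0 in OuJ at 48 h (-0.22 ± 0.39, adjusted p = 0.865). In HeJ it lay below all air arrays at 24 h (42.1, 164 and 160.2 against 267, 207 and 201 in air), where the lowest value belonged to replicate 1.

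Of the 3 cytokinesis genes, 2 passed in both strains. Anillin (Anln), which organizes the contractile ring, read 109, 109 and 78.6 in OuJ air, 110.1, 94.6 and 105 at 24 h and 238, 189 and 210.0 at 48 h (1.00 ± 0.17, adjusted p = 0.00156). The HeJ signals were 113, 96.2 and 87.4 in air, 124, 129 and 129 at 24 h and 159.9, 210.3 and 215 at 48 h (0.87 ± 0.17, adjusted p = 0.00344), and the 24 h arrays lay between air and 48 h without overlap. Ect2, the exchange factor that activates RhoA for the ring, read 47.3, 45.2 and 26.9 in OuJ air and 115, 170.2 and 74.6 at 48 h (1.24 ± 0.33, adjusted p = 0.0299). Its HeJ signals were 29.8, 16.1 and 38.9 in air and 123, 81.7 and 60.7 at 48 h (1.23 ± 0.33, adjusted p = 0.0245). Its partner Racgap1 read 233, 180.1 and 181 in OuJ air and 308, 307 and 345 at 48 h, without overlap and without passing (0.66 ± 0.20, adjusted p = 0.0585). In HeJ it had a value of 0.38 ± 0.20 (adjusted p = 0.303), while its other probe set gave 1.36 ± 0.39 (adjusted p = 0.0456 in the fit of all probe sets).

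The chromosome proteins passed in 3 of 4 members in each strain. The proliferation antigen Mki67, which coats mitotic chromosomes, read 166, 135 and 116 in OuJ air, 145, 89.3 and 135 at 6 h, 147, 93.5 and 129.5 at 24 h and 489, 419 and 429.5 at 48 h. Only the 48 h arrays stood above air (1.58 ± 0.27, adjusted p = 0.00149). Signals in HeJ were 177, 106 and 136 in air, 137, 94.1 and 55.6 at 6 h, 149, 244 and 308 at 24 h and 353, 469 and 471 at 48 h (1.53 ± 0.27, adjusted p = 0.00139). Here 2 of the 3 arrays at 24 h already stood above air and replicate 1 did not (0.65 ± 0.27, adjusted p = 0.208). Topoisomerase II alpha (Top2a), which untangles sister chromatids, read 208, 314 and 262 in OuJ air and 626, 405 and 554 at 48 h (0.97 ± 0.26, adjusted p = 0.0301). HeJ lungs read 377, 225 and 225 in air and 593, 585 and 603 at 48 h (1.10 ± 0.26, adjusted p = 0.0107). The condensin subunit Smc2 passed in OuJ (185, 144 and 207 in air, 285, 302 and 312 at 48 h, 0.71 ± 0.19, adjusted p = 0.0359). It passed in HeJ too (183, 123 and 149 in air, 238, 242 and 282 at 48 h, 0.70 ± 0.19, adjusted p = 0.0301). Its partner in the same complex, Smc4, had values of 0.11 ± 0.11 in OuJ and -0.13 ± 0.11 in HeJ (adjusted p = 0.715 and 0.578). The difference between them was not tested. Cdca3, which helps degrade an inhibitor of mitotic entry, overlapped air in both strains (0.07 ± 0.27 in OuJ and -0.03 ± 0.27 in HeJ).

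The genes that passed were largely shared by the strains. At 48 h, 15 of the 42 passed as higher in both, which is 75% of those that passed in OuJ and 78.9% of those that passed in HeJ. Over all genes, 157 passed as higher in both, 52.5% of those of OuJ and 38.6% of those of HeJ. Ccna2, Cdk1, Aurka, Pttg1 and Nusap1 passed in OuJ and not in HeJ by the probe sets used, and Ttk, Bub1b, Mad2l1 and Kif20a in HeJ and not in OuJ. When the strains' changes at 48 h were compared directly with limma, 0 of the 42 genes and 0% of all genes passed. At an unadjusted p under 0.05, Ttk was higher in HeJ (0.85 ± 0.33, adjusted p = 0.605) and Ube2c lower (-0.59 ± 0.28, adjusted p = 0.697), 2 of the 42, where 6.98% of all genes reached that level. The intervals leave room for sizeable differences: the 95% interval of HeJ minus OuJ ran from -0.85 to 0.75 for Mki67, from -0.42 to 0.52 for Cks1b and from -2.67 to 1.10 for Cdk1. The 48 h counts also fell when an array was left out. Without OuJ air replicate 3 or OuJ 48 h replicate 1 the OuJ count was 9 in place of 20, and without HeJ air replicate 2 the HeJ count was 9 in place of 19. Over all genes the count fell too, from 609 to between 230 and 439 in OuJ. In HeJ it fell from 856 to between 510 and 579. Other probe sets gave mixed results in a fit of all probe sets. Of 23 genes with several probe sets, the signs at 48 h differed for 2 in OuJ and 11 in HeJ. Of the 37 probe sets not used, 6 passed as higher in OuJ and 5 in HeJ, and 0 as lower in either. With the probe sets of each gene averaged, Bub1, Incenp, Nusap1, Pttg1, Top2a and Tpx2 no longer passed in OuJ. In HeJ Bub1, Incenp, Kif22, Prc1 and Tpx2 no longer did. Birc5, Cks1b and Mki67 passed in both strains under each of the alternatives in which they were tested.

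**Figure D3:**
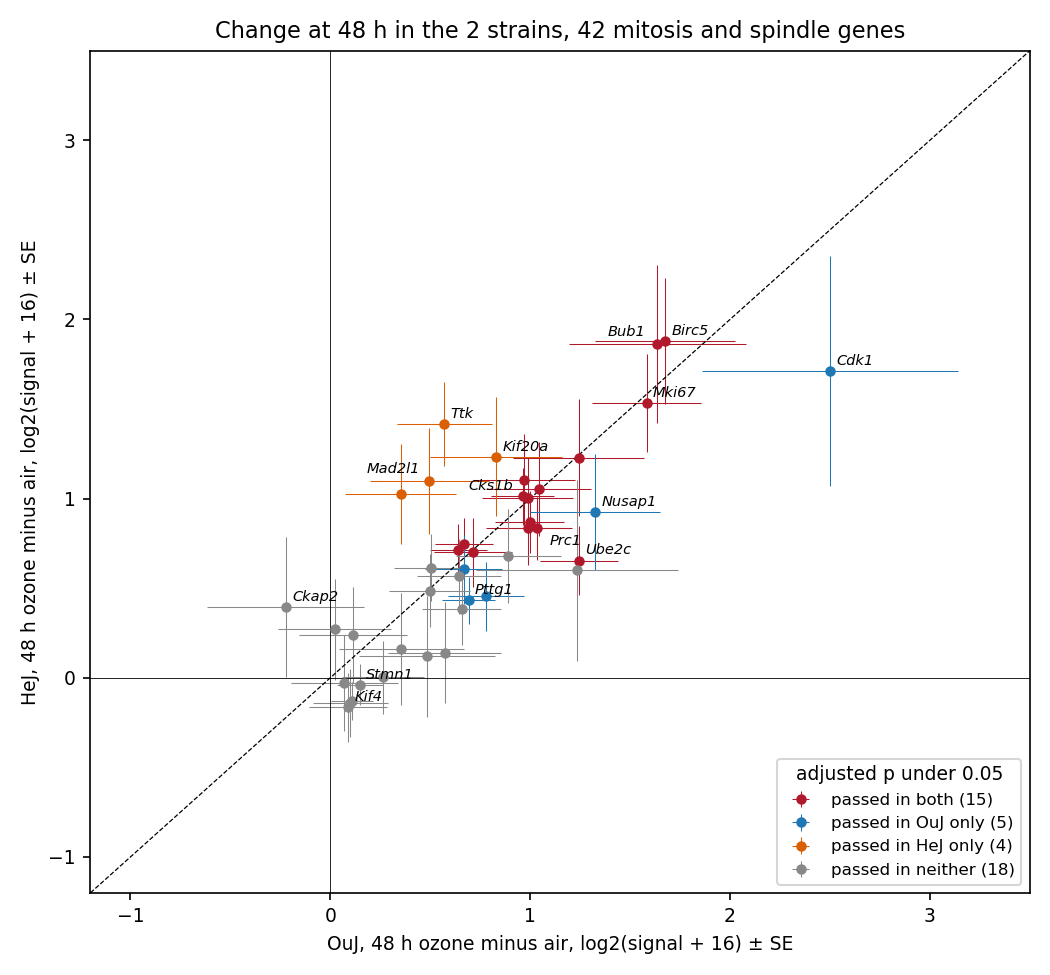
Change from air to 48 h of ozone in OuJ (horizontal) and HeJ (vertical), as differences of log2(signal + 16) ± SE, for the 42 mitosis and spindle genes. Colours give the strain in which a gene passed, and the dashed line marks equal change. The 15 genes that passed in both strains lie to the upper right, and of these Ube2c, at 1.24 in OuJ and 0.65 in HeJ, lies farthest below that line.

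With limma 0 of the 42 passed at 6 h in either strain, where 0.0565% of all genes passed in OuJ and 0% in HeJ. At an unadjusted p under 0.05, 2 were lower in OuJ and 0 higher, where 4.7% and 3.85% of all genes were. In HeJ 8 were lower and 1 higher, against 4.35% and 3.27%. The medians were -0.12 in OuJ and -0.22 in HeJ, against -0.02 over all genes in each. In HeJ 10 of the 42 had all 3 arrays at 6 h below all air arrays, where 6.76% of all genes did, and in OuJ 7 did, against 8.45%. Stmn1 was among them in both strains, with OuJ signals of 3171, 2897 and 2789 in air and 2350.3, 2727 and 2302 at 6 h. Its HeJ signals were 3052, 3106 and 3205 in air and 2581, 2239.5 and 2357 at 6 h (-0.38 ± 0.12, adjusted p = 0.413). Both groups of each comparison lie in 1 code series. In the direct comparison of the strains at 6 h, 0 of the 42 genes passed with limma and 1 reached an unadjusted p under 0.05, where 0.00807% and 5.37% of all genes did.

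At 24 h few of the genes passed in either strain. In OuJ the median was -0.10, and 14 of the 42 genes lay above 0, where 45.2% of all genes did. Pttg1 alone passed, as lower, and 1.6% of all genes passed as higher. In HeJ the median was 0.25, and 32 lay above 0, where 47.5% of all genes did. Ttk was the single member that passed in HeJ, as higher, against 1.74% of all genes, and 2.15% passed as lower. The number of members above all 3 air arrays was 7 to 9 in the 3 OuJ arrays and 17 to 21 in the 3 HeJ arrays. The direct comparison of the strains at 24 h gave a median HeJ minus OuJ difference of 0.35, with 33 of 42 genes above 0, where 52% of all genes were. With a filter on the mean signal, which left 6 of the genes, the HeJ median was -0.11 and the median strain difference 0.0012. With limma 0 of the 42 genes passed in the strain difference, and 0% of all genes. At an unadjusted p under 0.05, 7 members were higher and 0 lower, where 3.53% of all genes were higher and 3.28% lower. These 7 were Ttk, Ccnb2 (1.13 ± 0.32, adjusted p = 0.458), Pttg1, Cdc20, Kif20a, Kif22 and Mki67 (0.81 ± 0.39, adjusted p = 0.731). The arrays of the 2 strains at 24 h belong to different code series. The Gapdh ratio averaged 0.851 ± 0.0846 (SD, n = 3) at 24 h and 0.843 ± 0.0798 in air for OuJ. For HeJ it averaged 0.753 ± 0.174 at 24 h and 0.558 ± 0.0565 in air. The mean ratio was thus also higher at 24 h than in air in HeJ, and its part in the difference was not tested beyond a fit that took the ratio as a covariate, in which Ttk alone passed (adjusted p = 0.0255).

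The step from 24 to 48 h lies within 1 code series in each strain. In OuJ 8 of the 42 genes passed as higher and 0 as lower, in a comparison in which 0.121% of all genes passed as higher and 0.0161% as lower. Only 15 genes of the whole array passed as higher, so that the mitosis and spindle genes were 8 of these 15. The 8 were Pttg1, Ube2c, Prc1, Ccnb2, Mki67, Kif22, Anln and Tpx2. Of these only Mki67 and Ube2c passed under every alternative. Tpx2 (1.04 ± 0.21, adjusted p = 0.0469 with limma) was lost under most, among them median centring and the replicate block. Pttg1, Ube2c, Prc1 and Ccnb2 held ranks 1 to 4 by p among the 12394 genes. Ube2c changed by 1.78 ± 0.19 (adjusted p = 4.79e-05), a fold of 3.43. Pttg1 changed by 1.29 ± 0.13 (adjusted p = 3.07e-05), Mki67 by 1.75 ± 0.27 (adjusted p = 0.00469) and Ccnb2 by 1.73 ± 0.23 (adjusted p = 0.00053). Of the 42 genes 34 had all 48 h arrays above all 24 h arrays, where 7.42% of all genes did, and the median was 0.77. The other 7 higher genes were Melk, Cep55 and Pbk, which also act in mitosis, the ribonucleotide reductase subunit Rrm2, Pclaf, Dctn2 and Tcf19. Zfp474 and Avpr1b were lower. Genes outside the lists are named here after their values were seen.

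**Figure D4:**
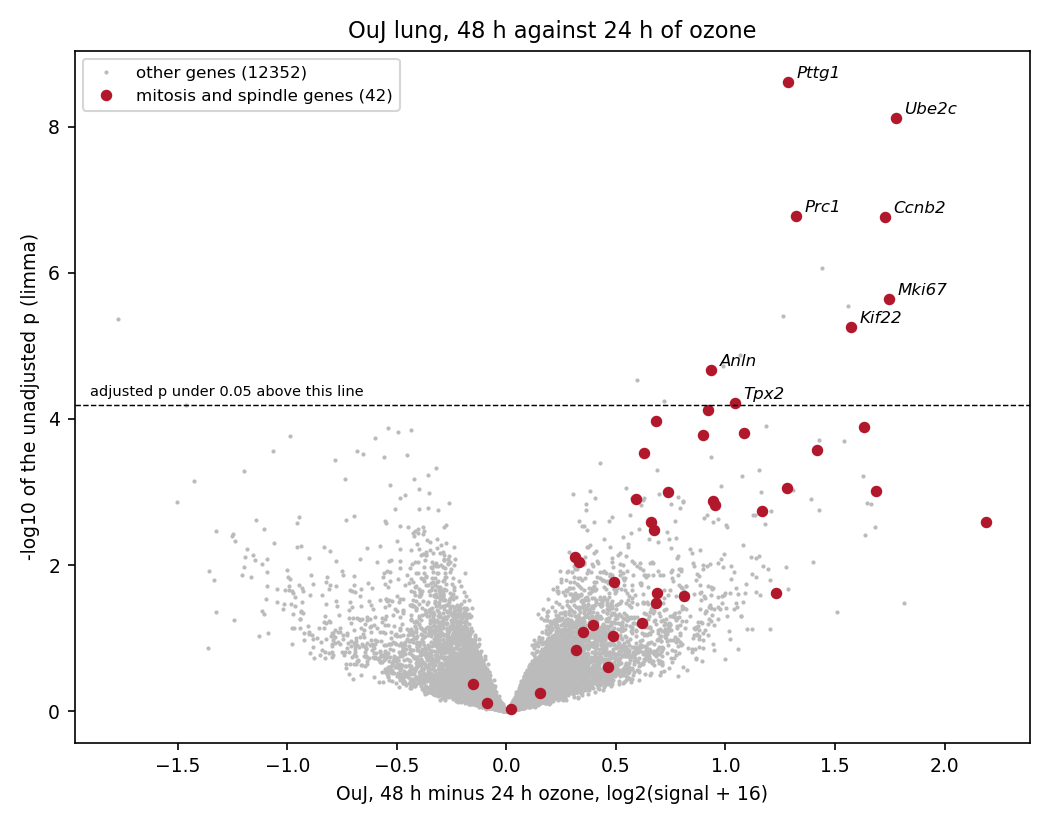
OuJ lungs at 48 h against 24 h of ozone: change in log2(signal + 16) (horizontal) against -log10 of the unadjusted limma p (vertical) for the 42 mitosis and spindle genes (red) and 12352 other genes (grey). The dashed line marks an adjusted p of 0.05, and the 8 labelled genes are the mitosis and spindle genes above it, with Pttg1 and Ube2c at the top.

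In HeJ the same step gave 5 of 42 genes as higher and 0 as lower, where 1.27% of all genes passed as higher and 1.44% as lower: Cks1b, Smc2, Prc1, Ube2c and Pttg1. Cks1b changed by 0.84 ± 0.16 (adjusted p = 0.00753) and Smc2 by 0.86 ± 0.19 (adjusted p = 0.0226). Ube2c, with 0.75 ± 0.19, and Pttg1, with 0.50 ± 0.13, had smaller values than in OuJ. The median was 0.47 against 0.77 in OuJ. The strain difference of this step was above 0 for 5 of the 42 genes, where 45.2% of all genes were, with a median of -0.40, and 0 of them and 0% of all genes passed in it with limma. At an unadjusted p under 0.05, 11 members were lower in HeJ, where 5.07% of all genes were, among them Pttg1 (-0.79 ± 0.19, adjusted p = 0.204) and Ube2c (-1.03 ± 0.28, adjusted p = 0.229). The HeJ calls rested on few arrays. Without HeJ 24 h replicate 1, the array with the highest Gapdh ratio of the strain, 0 of the 42 passed. The count over all genes fell from 335 to 50 without that array. In a fit of the 6 arrays of this step alone, 3 genes passed in OuJ (Mki67, Pttg1 and Ube2c, the only ones of all genes) and 0 in HeJ.

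Between the strains in air 0 of 42 genes passed with limma, where 0.339% of all genes did, and at an unadjusted p under 0.05 Ttk and Mad2l1 were lower in HeJ, 2 of 42, where 4.93% of all genes were. The median HeJ minus OuJ difference in air was -0.03.

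Fewer of the other cell cycle genes passed. At 48 h 2.41% of all genes passed as higher and 2.5% as lower in OuJ, against 3.28% and 3.62% in HeJ. Of 37 further mitosis genes, 5 passed as higher in OuJ at 48 h and 3 in HeJ, led by the kinases Melk (1.63 ± 0.21 in OuJ and 1.49 ± 0.21 in HeJ) and Pbk. Their medians were 0.28 and 0.13. Of 42 DNA replication genes, 8 passed as higher in each strain, with medians of 0.38 and 0.31. Rrm2, which makes deoxynucleotides, changed by 1.16 ± 0.18 in OuJ and 1.44 ± 0.18 in HeJ, and the sliding clamp Pcna by 0.62 ± 0.10 and 0.49 ± 0.10. Of 15 genes of the G1 to S transition, 0 passed in OuJ and 1 in HeJ, the atypical E2F factor E2f8 (1.63 ± 0.46). At an unadjusted p under 0.05, 3 of the 15 were higher in OuJ and 2 in HeJ, where 7.31% and 8.4% of all genes were. Of 25 genes that restrain the cycle, 1 passed as higher and 2 as lower in OuJ, and 2 as higher and 2 as lower in HeJ. The CDK inhibitor Cdkn2c was lower in both strains (-0.79 ± 0.17 and -0.65 ± 0.17), and Cdkn1c, another CDK inhibitor, was higher in both (0.68 ± 0.19 and 0.63 ± 0.19). No list was tested as a whole.

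**Figure D5:**
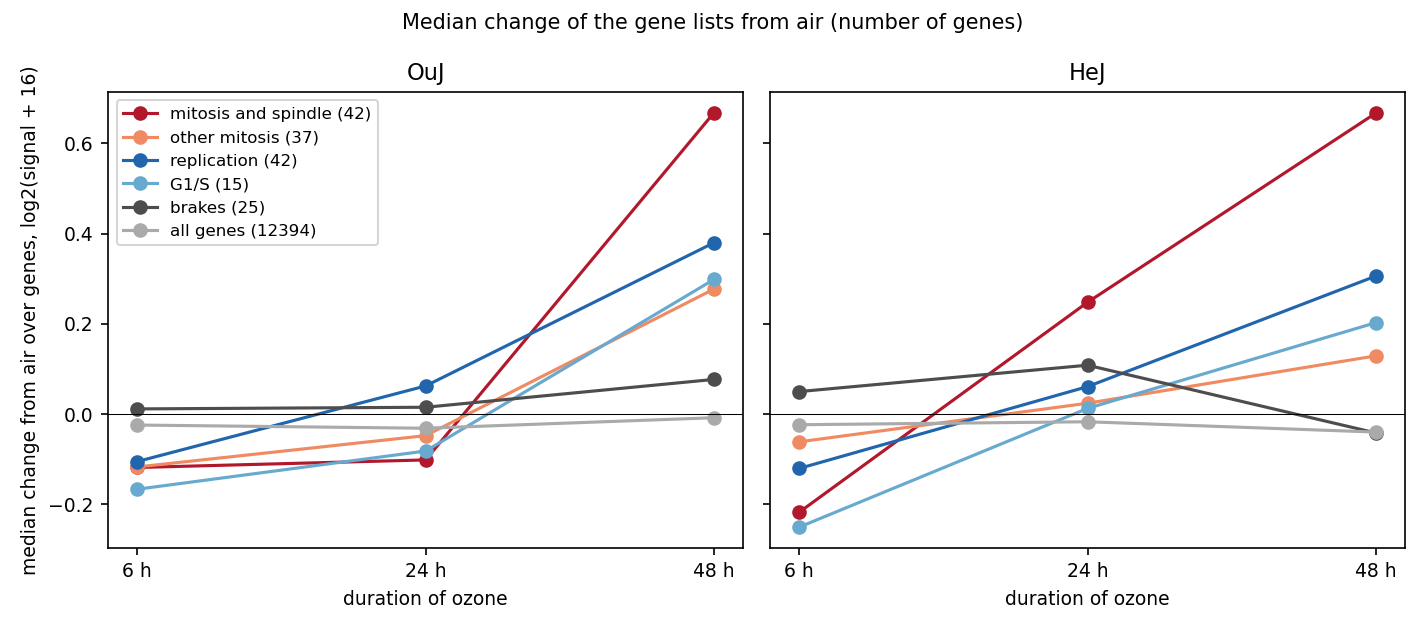
Median change from air over the genes of each list at 6, 24 and 48 h of ozone (horizontal), in OuJ (left) and HeJ (right), as log2(signal + 16). Lines are the 42 mitosis and spindle genes, 4 other cell cycle lists and all 12394 genes. The mitosis and spindle line reaches 0.67 at 48 h in both panels, above the other lists, and at 24 h it lies at -0.10 in OuJ and 0.25 in HeJ.

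Over the 8 group means, the course of single genes was set beside the mean of the 42. Mki67 was nearest to that mean (Pearson r = 0.994), and 23 of the 42 members had an r above 0.9 while 5 had one under 0.5. The members are part of the mean they are compared with. Of the 100 genes most like it, 25 were members. The 5 non-members with the highest r were Cd209e (0.993), Pbk (0.984), the replication protein Rpa2 (0.973), the thymidine kinase Tk1 (0.966) and the condensin subunit Ncapd2 (0.959). Cd209e encodes a C-type lectin and is the only one of the 5 in none of the lists. The points are 8 means of the same 24 arrays, so r is given as a description.

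Promoters are shown for the 5 mitosis genes with the smallest p between 24 and 48 h in OuJ, because the step between these times gave the lowest p-values for them. Genes of this kind often carry a cell cycle homology region (CHR, searched as TTTGAA) and CCAAT boxes, through which the DREAM and MuvB complexes and NF-Y act. Windows of 250 bases before to 50 after the start in RefSeq (GRCm38.p6) were found by symbol for 36 of the 44 genes, 38 windows in all, and both motifs were searched on both strands, each without regard to overlap with the other. The 170 bases before the start are printed on the gene's strand, with each match in capitals (TTCAAA and ATTGG are the motifs on the other strand).
Pttg1 promoter, chr11:43425982-43426151 (- strand): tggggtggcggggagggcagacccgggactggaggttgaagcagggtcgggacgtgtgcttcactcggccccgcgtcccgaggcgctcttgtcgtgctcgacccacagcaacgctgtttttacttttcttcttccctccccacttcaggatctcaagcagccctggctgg
Ube2c promoter, chr2:164769759-164769928 (+ strand): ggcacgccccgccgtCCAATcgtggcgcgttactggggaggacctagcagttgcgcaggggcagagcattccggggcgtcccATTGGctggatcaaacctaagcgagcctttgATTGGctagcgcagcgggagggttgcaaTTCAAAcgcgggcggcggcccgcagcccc
Prc1 promoter, chr7:80294281-80294450 (+ strand): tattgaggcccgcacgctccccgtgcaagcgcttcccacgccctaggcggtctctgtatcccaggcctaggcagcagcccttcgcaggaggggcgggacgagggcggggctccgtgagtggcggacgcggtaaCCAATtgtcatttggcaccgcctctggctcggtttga
Ccnb2 promoter, chr9:70421555-70421724 (- strand): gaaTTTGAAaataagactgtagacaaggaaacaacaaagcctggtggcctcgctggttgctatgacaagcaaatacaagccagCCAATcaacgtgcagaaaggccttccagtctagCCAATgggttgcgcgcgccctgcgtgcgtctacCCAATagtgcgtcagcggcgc
Mki67 promoter, chr7:135716380-135716549 (- strand): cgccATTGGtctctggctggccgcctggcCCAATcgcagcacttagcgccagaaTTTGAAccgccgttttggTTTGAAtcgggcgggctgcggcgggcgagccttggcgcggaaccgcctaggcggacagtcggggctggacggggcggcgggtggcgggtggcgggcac
In these stretches Ube2c had 1 CHR, 29 bases before the start, and 3 CCAAT boxes, Ccnb2 1 CHR and 3 CCAAT boxes, and Mki67 2 CHR and 2 CCAAT boxes. Prc1, which has a second window not shown, had 1 CCAAT box, at -37, and a CHR that begins at -5 and runs over the end of the printed stretch. Pttg1 had no match in its window. A match is a description of letters and not of a bound site, and a window without one says nothing of the factors.

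Over the 38 windows, 76.3% held a CHR and 84.2% a CCAAT box, against 17.9% and 37.4% of all 32851 windows of the same length. Both motifs stood in 71.1% of the windows of these genes and in 6.95% of all windows. At least 2 CCAAT boxes stood in 57.9% against 11.7%. A CHR was in 72.7% of the windows of genes that passed as higher at 48 h in either strain and in 85.7% of those that passed in neither. Among genes that passed in both strains, Birc5, Bub1 and Cks2 had no CHR in the window. A CHR was in 50% of the windows of the further mitosis genes and in 14% of those of the replication genes. A CCAAT box was in 63.5% and 53.5% of these windows, also above the 37.4% of all windows. These windows were taken for all listed genes, measured or not. They were 52 windows of 46 of the 60 listed mitosis genes and 43 windows of 37 of the 46 listed replication genes.

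Markers of several other cell types moved over the same hours, and they are given here beside the 48 h result. Others moved little: the sums of alveolar type 1, alveolar type 2, club cell and fibroblast markers overlapped air at 48 h in both strains. The ciliated sum overlapped air in OuJ and lay above it in HeJ. The monocyte and macrophage sum overlapped air in OuJ and lay below it in HeJ. In the alveolar, club and ciliated lists only Hp (higher in both), Sftpd (higher in OuJ) and Tekt2 (lower in OuJ) passed. Of all genes, 2.41% passed as higher and 2.5% as lower in OuJ at 48 h, and 3.28% and 3.62% in HeJ. Of 8 markers of basal and repair epithelium, 3 passed as higher at 48 h in OuJ and 4 in HeJ, among them the keratin Krt8 (1.15 ± 0.11 and 1.35 ± 0.11) and the cornified envelope protein Sprr1a (1.86 ± 0.28 and 3.01 ± 0.28). Their summed signal ran from 8003 to 9580 in OuJ air, from 12351 to 12814 at 24 h and from 14231 to 15890 at 48 h. In HeJ it ran from 8929 to 10206 in air, from 13452 to 14866 at 24 h and from 17733 to 20765 at 48 h. Krt19, Krt8 and Krt18 made up most of this sum, with mean signals of 4621, 4047 and 2579 over all arrays. Krt5, Krt14 and Trp63 of the same list had means of 29.6, 82.4 and 44.5 and added little to it. This sum thus stood above air at 24 h in both strains, when the mean log2 level of the mitosis genes lay between 7.11 and 7.22 in OuJ (7.15 to 7.42 in air) and between 7.39 and 7.57 in HeJ (7.03 to 7.46 in air). Of 7 B cell markers, 4 passed as lower in OuJ at 48 h and 5 in HeJ, and their sum ran from 3638 to 4416 in OuJ air and from 1871 to 2115 at 48 h. In HeJ it ran from 3788 to 4566 and from 1673 to 2153. Of 10 T and NK cell markers, 1 passed as lower in OuJ and 6 in HeJ, and of 8 endothelial markers 3 and 4. Of 10 neutrophil markers, S100a8 (-1.14 ± 0.32) and S100a9 (-1.44 ± 0.30) passed as lower in OuJ and 0 passed in HeJ with limma, where 2 were lower at an unadjusted p under 0.05. Their sum ran from 3271 to 4260.1 in OuJ air and from 1909 to 2562 at 48 h, without overlap, and in HeJ from 2914 to 4058 and from 1880.2 to 3602, with overlap. Of 7 markers of red cell precursors, 0 passed in OuJ with limma. At an unadjusted p under 0.05, 1 of the 7 was higher in OuJ, where 7.31% of all genes were. In HeJ Alas2 (-1.02 ± 0.22) and Slc4a1 (-1.32 ± 0.38) passed as lower and Tfrc (0.63 ± 0.19) as higher, and the sum ran from 5982 to 8303 in air and from 4319 to 5129.7 at 48 h. Among 11 alveolar macrophage markers the summed signal ran from 16042 to 16654 in OuJ air and from 16754 to 18147 at 48 h. In HeJ it ran from 14996 to 17098 and from 17398 to 24206, in both strains without overlap. Chil3, Car4 and Krt79 were the brightest of these markers, with mean signals of 4026, 3650 and 2547 over all arrays, so the sum says little of dimmer ones. No marker of these lists was below 16 on every array. The part of these cell types in the mitosis result was not tested.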

How the data were processed

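Lung RNA of 24 mice was hybridised to 1-colour arrays, 1 per mouse. The deposited table holds signal intensities on a linear scale for 22690 probe sets, computed by the authors with GCOS 1.4, per the submitters' processing notes. Settings were not given in the sources used here; a 2% trimmed mean was 500.1 to 500.2 on every array, and array medians lay between 200.05 and 229.3.

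Probe sets were named through the platform annotation: 20393 had 1 gene symbol, 691 several and 1606 none, and only those with 1 symbol were used. A gene was represented by its probe set with the highest mean log2(signal + 16), with no filter on low signal. The limma package 3.58.1 in R 4.3.3 fitted 1 mean per group over all 24 arrays, with an intensity trend and 16 residual degrees of freedom. There were 13 comparisons, with p-values adjusted by Benjamini-Hochberg within each over 12394 genes. The fit was tested on simulated data. The number of arrays limits the precision, and with 3 against 3 an exact permutation test cannot go below 0.1.

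The genes, the lists and the tests were chosen with earlier results of these data known. Array values are given for up to 3 members of each role with the smallest p at 48 h in OuJ, and for up to 6 members that passed in each of the HeJ comparisons, 48 against 24 h and the strain differences; some others were added. From each other list up to 3 genes with the smallest p could be named, and outside the lists the 5 genes most like the mean of the members; other names were chosen after their values were seen. Alternatives were another added constant, normalization, filter, probe set rule, trend, set of arrays, array weights, the replicate block and each array left out; a covariate for the Gapdh 5' to 3' ratio was chosen after seeing the data.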

Additional observations from a re-analysis of the deposited data

How the results depend on the processing

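The number of the 42 genes that passed depended on the filter and on the arrays used. For 48 h against air in OuJ (20 genes), leaving out 1 array gave 9 to 15: 9 without OuJ air replicate 3 or OuJ 48 h replicate 1, 12 without OuJ 48 h replicate 3 and 13 without OuJ air replicate 2. A filter on the mean, which left 6 members tested, gave 3. In HeJ (19 genes) leaving out 1 array gave 9 (without HeJ air replicate 2) to 17, with 10 without HeJ 48 h replicate 2; the filter on the mean gave 3, and fits of only the groups compared or without the 4 arrays with a code suffix gave 10 each. The medians at 48 h stayed above 0, from 0.48 to 0.71 in OuJ and from 0.22 to 0.78 in HeJ. At 24 h the median ranged from -0.20 to -0.036 in OuJ, from -0.11 (filter on the mean) to 0.31 in HeJ, and from 0.0012 (the same filter) to 0.44 for the strain difference. At 24 h in OuJ (1 gene), the mean of the probe sets and only the groups compared gave 0, omission of the suffix arrays gave 2, and leaving out 1 array 0 to 1. At 24 h in HeJ (1 gene, Ttk), leaving out 1 array gave 1 to 2. Either filter gave 0, because Ttk was removed by it and not tested. Omission of the suffix arrays left 1 array of HeJ at 24 h, so no count is given for the comparisons that use this group. At 6 h in HeJ (0 genes) leaving out 1 array gave 0 to 1. The strain difference at 24 h (0 genes) gave 1 without the trend and 1 with the Gapdh covariate, and the strains in air gave 1 with the mean of the probe sets, without the trend or with array weights, each time Ttk. From 24 to 48 h in OuJ (8 genes), the filter on the mean gave 1 and the mean of the probe sets 5. The groups compared alone, which are the same arrays as the code series alone, gave 3, and leaving out 1 array 5 to 9. In HeJ (5 genes) a constant of 64 gave 8 and the filter on the mean 2. The groups compared alone, again the same arrays as the code series alone, gave 0, and so did the covariate. Leaving out 1 array gave 0 to 5. Bub1 reversed with a constant of 1, to -0.19 in OuJ and -0.045 in HeJ at 48 h. Replicate numbers showed little sign of pairing the mice. The deviations of arrays with the same number had a median r of 0.01, and those of arrays with other numbers -0.006. The replicate block gave 21 genes for OuJ at 48 h, 20 for HeJ at 48 h, 8 for OuJ from 24 to 48 h and 4 for HeJ, and 12 of 24 arrays correlated best with an array of their own number. Causes other than the number of genes or arrays used were not tested.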
